A study of Mus musculus with 12 samples.

Results

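The immunity related GTPases described here were 8 genes of the mouse IRG family, chosen by symbol among the 55216 genes of the count table: Irgm1, Irgm2, Igtp, Ifi47, Tgtp1, Tgtp2, Iigp1 and Gm12250. All 8 were in the table, and all 8 passed the filter on low counts that left 13177 genes for testing. Iigp1, Tgtp2 and Gm12250 passed it only through groups treated with IFNγ, so that their being called there was partly fixed by the filter. They were measured by RNA-seq of polyA RNA in Myc-CaP cells, an epithelial line from a Myc-driven prostate cancer of male FVB/NJ mice. In total, 12 libraries were made after 48 h, with 2 in each of 6 groups. The groups were untreated cells (Ctrl), interferon gamma (IFNγ) at 200 pg (IFN200) or 2000 pg (IFN2000), the platinum drug oxaliplatin at 2 μM (Oxali), and the drug together with either IFNγ amount (Combo200 and Combo2000). The labels give the IFNγ amounts without a volume, and the study gives them per mL. All groups were the same cell line grown in culture, so they carry no stroma or immune cells by design.

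IRG proteins are dynamin-like GTPases that mouse cells make in response to IFNγ. They are known for coating the vacuoles in which intracellular bacteria and parasites live, and for breaking those vacuoles open. The family is divided by a residue in the nucleotide-binding loop. The regulatory or GMS class (Irgm1, Irgm2 and Igtp, also named Irgm3) sits on the membranes of the cell itself and keeps the others inactive there, whereas the effector or GKS class (Iigp1, also Irga6; Tgtp1 and Tgtp2, also Irgb6; Ifi47, also Irgd; Gm12250, also Irgb10) loads onto the vacuole. IFNγ acts on such genes through the GAS element and through the ISRE, which IRF proteins such as IRF1 bind.

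Letter matches to these elements in the promoters are shown because several members share them. A GAS form (TTCNNNGAA) and an ISRE core (GAAANNGAAA) were searched on both strands in 300 bases around each RefSeq start site on GRCm38.p6, from 250 bases before to 50 after. Of the 7 members shown, 6 held an ISRE match and 5 held a GAS match, against 3.44% and 8.3% of all 32851 promoters of the same length. Ifi47 held neither. Matches of Iigp1, which lies on another chromosome than the rest, are not reported here. A κB form (GGGANNTTCC) was in 0 of the 7 windows and in 1.47% of all promoters. The stretches below are written 5′ to 3′ on the strand of the gene, with GAS and ISRE matches in capitals. They lie at chr11:48871428-48871457 on the minus strand (Irgm1, where 2 ISRE matches overlap), chr11:58214882-58214942 on the plus strand (Irgm2), chr11:58199491-58199551 on the plus strand (Igtp), chr11:48992294-48992354 on the minus strand (Tgtp1), chr11:49064253-49064313 on the minus strand (Tgtp2) and chr11:58183732-58183826 on the plus strand (Gm12250, whose ISRE matches read on the opposite strand).
Irgm1: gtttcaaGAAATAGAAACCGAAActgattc
Irgm2: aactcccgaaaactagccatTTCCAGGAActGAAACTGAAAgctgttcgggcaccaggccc
Igtp: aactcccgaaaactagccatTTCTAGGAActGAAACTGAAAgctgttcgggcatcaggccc
Tgtp1: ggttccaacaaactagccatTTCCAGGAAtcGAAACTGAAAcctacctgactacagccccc
Tgtp2: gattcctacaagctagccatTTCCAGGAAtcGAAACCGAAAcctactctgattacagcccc
Gm12250: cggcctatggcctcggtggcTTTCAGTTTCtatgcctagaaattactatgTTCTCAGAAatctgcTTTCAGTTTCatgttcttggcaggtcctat

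On GRCm38, 7 of the 8 genes lie in groups on chromosome 11. Irgm1 (chr11:48861968-48871683), Tgtp1 (chr11:48985327-48994172), Tgtp2 (chr11:49057194-49064206) and Ifi47 (chr11:49076587-49096974) are near each other, as are Gm12250 (chr11:58187739-58189012), Igtp (chr11:58199556-58207591) and Irgm2 (chr11:58199618-58222782), while Iigp1 lies at chr18:60376027-60392634. In Irgm2, Igtp, Tgtp1 and Tgtp2 the GAS match was followed by the ISRE match after exactly 2 bases. This arrangement, which was noticed in the members and then counted, was in 5 of the 32851 promoters, or 0.0152%, and the fifth was that of Gm12185, which shares 223 exonic bases with Tgtp1. The printed stretches of Irgm2 and Igtp, which are neighbours on chromosome 11, had the same letter at 59 of 61 positions, and those of Tgtp1 and Tgtp2 at 47 of 61. The Irgm2 and Tgtp1 stretches had the same letter at 41 of 61 positions. The stretches are placed by RefSeq starts, and GENCODE differs for some. All 30 bases of the Irgm1 stretch lie in GENCODE exons. The Irgm2 and Tgtp1 stretches lie within the GENCODE spans of their genes, outside exons. A match is a match of letters and shows no binding.

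**Figure D1:**
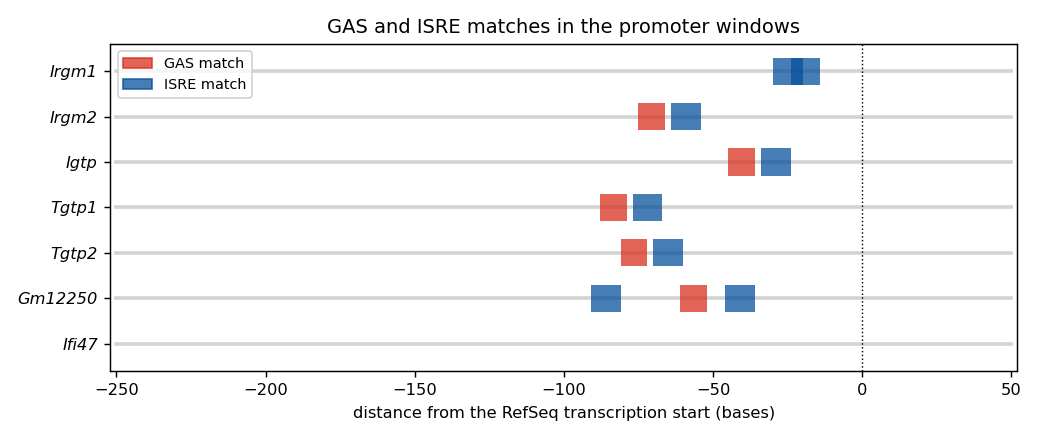
Positions of GAS matches (red) and ISRE matches (blue) in the promoter windows of 7 members; the horizontal axis is the distance in bases from the RefSeq transcription start, marked by the dotted line. In 4 members the GAS match sits directly before the ISRE match, Irgm1 has 2 overlapping ISRE matches, and Ifi47 has neither.

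Library totals ran from 18749975 to 25931516 counts. A count of 3, taken here as the floor, was worth 0.111 to 0.167 normalised CPM (counts scaled by effective library size). The title and the agent label disagree for the 6 libraries of the single treatments, and the titles were used. The mean log2 ratio of 8 p53 targets to Ctrl was 0.386 to 0.445 in the 6 libraries with Oxali in the title and -0.0412 to 0.0441 in the other 6. Libraries with and without the drug in the title thus did not overlap. The p53 targets do not tell the IFNγ amounts apart, which rest on the titles alone. Of the markers of the prostate line, Myc had 2268 to 3835 counts and Krt8 353 to 628 in each library. Epcam was at 0 in all 12, Krt18 had at most 5 counts and Cdh1 at most 6. The library labelled IFN2000 replicate 2 held 136 counts over 7 T cell markers, or 5.82 CPM, against at most 0.262 CPM in any other library, and 117 counts of Ifng itself against at most 9. The 7 macrophage markers summed to 12.5 to 19.0 CPM, mostly Cd14, with Adgre1 and Itgam at 0 in all 12 libraries. Among them, Csf1r had 8 to 19 counts in the 6 libraries with Oxali and 0 in the other 6, and Lyz2 had 3 to 11 counts against at most 1. The 5 heart muscle markers summed to 6.55 CPM in IFN200 replicate 1, to 3.02 to 5.94 CPM in the 6 libraries with Oxali, mostly Tnnt2, and to 0.834 to 1.27 CPM in the other 5. The part of these reads in the results was not tested, and values without the 2 libraries are given where a call changes.

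Per length, Irgm1 was by far the most abundant member in untreated cells. It stood at 10.3 ± 0.332 CPM per kb of exon (SD, n = 2 as for all levels here), ahead of Tgtp1 at 2.42 ± 0.253 and Igtp at 0.983 ± 0.00924. Irgm2 (0.339 ± 0.0325), Ifi47 (0.280 ± 0.0488) and Gm12250 (0.276 ± 0.165) were lower on the same scale. Iigp1, with 0 and 2 counts, and Tgtp2, with 0 and 0, were at the floor. In Combo2000 the order was another one: Igtp led at 122 ± 0.621 CPM per kb, followed by Irgm2 at 54.0 ± 1.62 and Irgm1 at 42.4 ± 0.325. In bulk RNA, a change in the number of cells that express a gene and a change in RNA per cell cannot be told apart.

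Among the regulatory members, Irgm2 and Igtp rose from low levels whereas Irgm1 rose from a high one. Irgm1, which guards lysosomes and other membranes of the cell against the effectors, had 1103 and 1157 counts untreated, 1498 and 1434 with 200 pg and 2764 and 2597 with 2000 pg of IFNγ alone, 1203 and 1134 with Oxali alone, and 3287 and 3977 (Combo200) and 6622 and 5753 (Combo2000) with both agents. Scaled to library size, these were 60.0 ± 1.93, 64.2 ± 1.17, 117 ± 1.72, 54.7 ± 0.924, 148 ± 7.31 and 246 ± 1.89 CPM. The libraries of Ctrl, IFN200 and Oxali thus sat close together, and IFN2000, Combo200 and Combo2000 were each above the group before without overlap. The log2 fold change in Combo2000 over Ctrl was 2.04 ± 0.0448 (SE; adjusted p = 4.75e-18, edgeR).

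Igtp, which sits on the endoplasmic reticulum and lipid droplets, had 36 and 39 counts untreated, 125 and 85 with 200 pg and 1197 and 1173 with 2000 pg of IFNγ alone, 110 and 114 with Oxali alone, and 1760 and 2098 (Combo200) and 6678 and 5698 (Combo2000) with both agents. Only IFN200 and Oxali overlapped, and their means of 4.59 ± 1.18 and 5.25 ± 0.263 CPM were not told apart (adjusted p = 0.231). Irgm2, found at the Golgi, had 24 and 23 counts untreated, 84 and 97 with 200 pg and 748 and 709 with 2000 pg of IFNγ alone, 168 and 126 with Oxali alone, and 2197 and 2366 (Combo200) and 5272 and 4727 (Combo2000) with both agents. No groups of Irgm2 overlapped, and Oxali alone, at 6.87 ± 1.22 CPM, was above IFN200, at 3.96 ± 0.452 CPM (adjusted p = 2.67e-05). The log2 fold change in Combo2000 over Ctrl was 6.95 ± 0.0885 for Igtp and 7.32 ± 0.0958 for Irgm2. In the annotation, the exons of Irgm2 and Igtp share 162 bases on the same strand, which is 8.0% of Igtp and 4.4% of Irgm2, so some of their reads could be assigned to either.

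Among the effector members, Iigp1, a GTPase that oligomerises on parasite vacuoles, went from the floor in Ctrl to 95.1 ± 5.92 CPM in Combo2000. It had 0 and 2 counts untreated, 5 and 4 with 200 pg and 121 and 118 with 2000 pg of IFNγ alone, 2 and 3 with Oxali alone, and 416 and 480 (Combo200) and 2456 and 2305 (Combo2000) with both agents. The lower 3 groups were at or just above the floor and were not told apart, whereas the upper 3 were widely separated. Because Ctrl held 2 counts in all, fold changes over Ctrl are given as ratios of summed counts with an exact 95% interval, which covers counting error only: 98.5 (27.0 to 818) in IFN2000, 346 (95.5 to 2863) in Combo200 and 1788 (495 to 14770) in Combo2000.

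Tgtp1 and Tgtp2 are close copies that cannot be fully separated by short reads. Of all 50-base words in the Tgtp2 transcripts, 85.8% were also in Tgtp1, and 79.4% of those in Tgtp1 were also in Tgtp2, so the split between them is uncertain. Tgtp1 had 150 and 142 counts untreated, 254 and 234 with 200 pg and 536 and 490 with 2000 pg of IFNγ alone, 184 and 192 with Oxali alone, and 812 and 940 (Combo200) and 1356 and 1299 (Combo2000) with both agents. Tgtp2 had 0 and 0 counts untreated, 13 and 9 with 200 pg and 97 and 100 with 2000 pg of IFNγ alone, 3 and 4 with Oxali alone, and 192 and 229 (Combo200) and 496 and 427 (Combo2000) with both agents. Against a floor of 3 counts per library, Tgtp2 was at least 3.02-fold higher than Ctrl with 200 pg of IFNγ and at least 27.0-fold with 2000 pg, and with Oxali added these bounds were 54.0-fold and 115-fold. With the counts of both symbols summed, a step added after seeing how much sequence they share, the level went from 7.77 ± 0.812 CPM in Ctrl to 71.5 ± 4.09 in Combo2000, a log2 fold change of 3.20 ± 0.0759 (adjusted p = 1.14e-17, edgeR). No call made for Tgtp1 alone changed with the sum. Of the calls made for Tgtp2 alone, those in IFN200 and in Oxali against Ctrl were not made for the sum (adjusted p = 0.0598 and 0.0955, edgeR).

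Ifi47, an effector that also binds vacuoles, had 14 and 12 counts untreated, 37 and 39 with 200 pg and 230 and 165 with 2000 pg of IFNγ alone, 62 and 59 with Oxali alone, and 369 and 428 (Combo200) and 622 and 628 (Combo2000) with both agents. No groups overlapped, although Ctrl and IFN200 were not told apart by the test, and the log2 fold change in Combo2000 over Ctrl was 5.17 ± 0.187. Gm12250 (Irgb10), an effector that also acts on the envelopes of cytosolic bacteria, was low in every single treatment. It had 9 and 4 counts untreated, 8 and 8 with 200 pg and 23 and 16 with 2000 pg of IFNγ alone, 3 and 2 with Oxali alone, and 58 and 58 (Combo200) and 457 and 411 (Combo2000) with both agents. The libraries of Ctrl and the single treatments lay between 2 and 23 counts, and all 4 combination libraries were above them. GENCODE annotates this symbol as a processed pseudogene of 1274 bases at chr11:58187739-58189012, whereas RefSeq lists it as protein coding, so the counted exon may hold only part of the transcript.

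**Figure D2:**
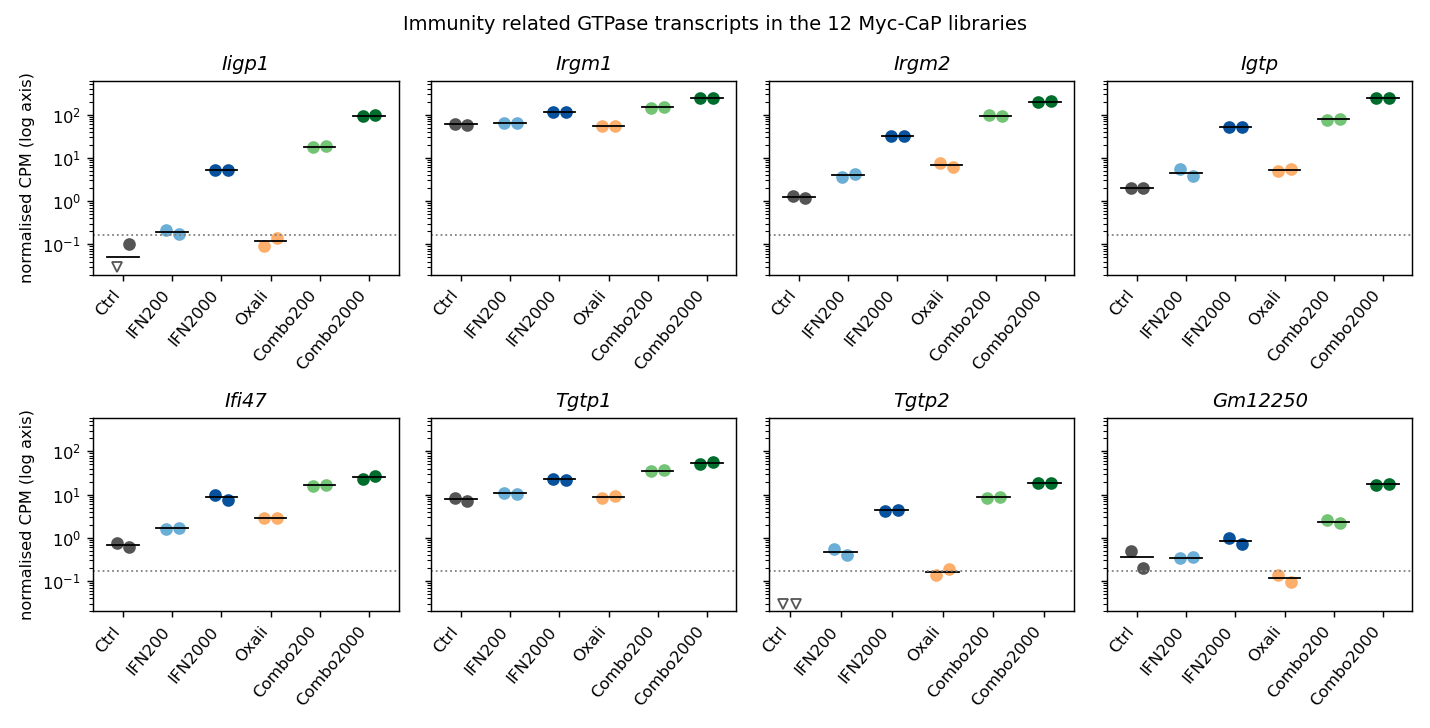
Normalised CPM (log axis) of each member in the 12 libraries, coloured by group; points are libraries, black bars the mean of 2, open triangles libraries at 0 counts, and the dotted line the highest floor of 3 counts (0.167 CPM). In every panel IFN2000, Combo200 and Combo2000 are the 3 highest groups, in that order.

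In all 8 members the 3 highest groups were IFN2000, then Combo200, then Combo2000, and each step between them passed the test. Combo200 exceeded IFN2000 although it held less IFNγ, by 1.27 times in Irgm1, 1.52 in Igtp, 1.60 in Tgtp1, 1.90 in Ifi47, 2.00 in Tgtp2, 2.81 in Gm12250, 2.94 in Irgm2 and 3.51 in Iigp1 (ratios of group means). The share of all genes called higher in Combo200 than in IFN2000 was not counted. With Oxali added at a fixed IFNγ amount, 36.5% (200 pg) and 38.5% (2000 pg) of all genes were called higher. The lower part of the order differed among members. Ctrl and IFN200 were not told apart for Irgm1 (adjusted p = 0.816), Ifi47 (0.334) or Gm12250 (0.999), nor for Tgtp1 (0.194) and Iigp1 (0.816). Ctrl and Oxali were not told apart for Tgtp1 (0.161) or Iigp1 (0.379).

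The make-up of the family changed with treatment. Summed over the 8 members, the level went from 14.6 ± 0.829 CPM per kb in Ctrl to 17.9 ± 0.225 in Oxali, 18.9 ± 0.822 in IFN200, 67.9 ± 0.995 in IFN2000, 116 ± 2.26 in Combo200 and 281 ± 5.20 in Combo2000. Irgm1 made up 70.6% ± 1.73 of it in Ctrl but 29.7% ± 0.000212 in IFN2000 and 15.1% ± 0.164 in Combo2000. Igtp went the other way, from 6.73% ± 0.318 to 37.7% ± 1.12 and 43.3% ± 1.02, and Irgm2 from 2.31% ± 0.0910 to 12.7% ± 0.0788 and 19.2% ± 0.220. The summed share of the 3 regulatory genes stayed between 76.1% and 81.0% in the 12 libraries. That narrow range rested on Tgtp1 and Tgtp2: without them, the regulatory share of the remaining 6 genes was 95.4% ± 1.44 in Ctrl, 91.5% ± 1.31 in IFN2000 and 84.5% ± 0.772 in Combo2000.

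**Figure D3:**
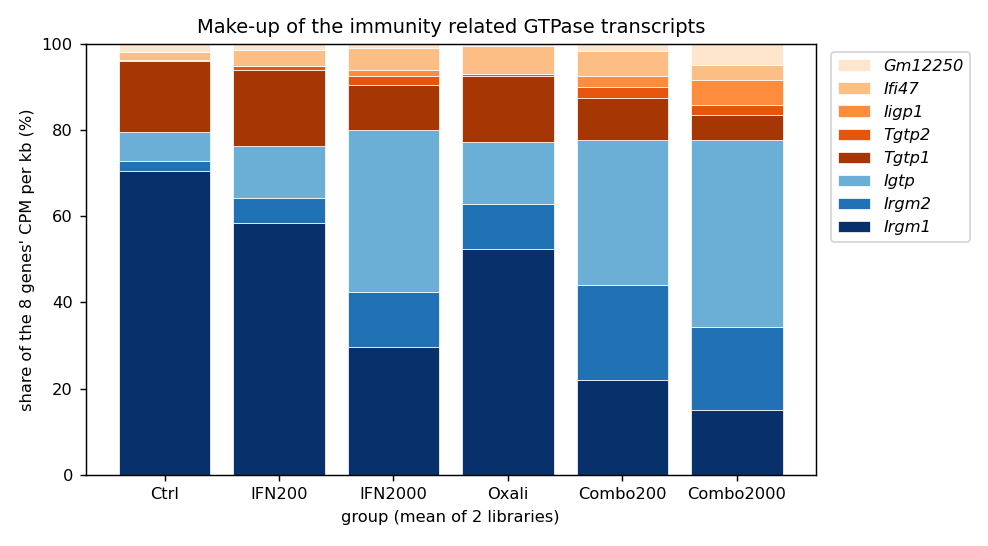
Share of the summed CPM per kb of the 8 members taken by each gene, in percent of the mean of 2 libraries per group; blue are the regulatory genes and orange to brown the effector genes. Irgm1 shrinks from 70.6% in Ctrl to 15.1% in Combo2000 while Igtp grows from 6.73% to 43.3%.

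The comparison of IFNγ alone with Ctrl asked what the cytokine did without the drug. A gene was called where edgeR's quasi-likelihood test, fitted on all 12 libraries and adjusted by Benjamini-Hochberg over all 13177 genes, gave an adjusted p under 0.05. At 200 pg, 3 of 8 members were called higher, where 0.114% of all genes were: Irgm2 (log2 fold change 1.66 ± 0.208, adjusted p = 0.000741), Igtp (1.21 ± 0.182, adjusted p = 0.00518) and Tgtp2 (adjusted p = 0.0134, against a Ctrl at 0). These rested on few libraries, and the Tgtp2 call was not made for its counts summed with Tgtp1. Without Ctrl replicate 1, Igtp (adjusted p = 0.236) and Tgtp2 (0.28) were no longer called, without Ctrl replicate 2 none of the 3 was (Irgm2 0.0756, Igtp 0.269, Tgtp2 0.269), and without IFN200 replicate 1, which held the most heart muscle reads, Igtp (0.153) and Tgtp2 (0.153) were not. At 2000 pg all 8 were called higher, where 8.39% of all genes were, with a median log2 fold change of 4.15 against 0.000523 over all genes. The smallest changes were those of Irgm1 (0.97 ± 0.0462) and Gm12250 (1.29 ± 0.402). Without IFN2000 replicate 2, the library with T cell and Ifng reads, the other 7 were still called and Gm12250 was not (log2 fold change 1.04, adjusted p = 0.255). Without Ctrl replicate 2 it was not called either (0.77, adjusted p = 0.346).

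The step from 200 to 2000 pg raised all 8 members, where 11.3% of all genes were called higher. The ratio of the group means was 26.5 for Iigp1, 11.3 for Igtp, 8.96 for Tgtp2, 8.03 for Irgm2, 5.17 for Ifi47, 2.42 for Gm12250, 2.10 for Tgtp1 and 1.82 for Irgm1. In IFN200, the ratio of Iigp1 rests on 5 and 4 counts, that of Tgtp2 on 13 and 9, and that of Gm12250 on 8 and 8. The call of Gm12250 (adjusted p = 0.021) was lost without IFN200 replicate 1 (0.107), IFN200 replicate 2 (0.0756) or IFN2000 replicate 2 (0.207).

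Oxali alone raised 4 of 8 members, where 34.8% of all genes were called higher: Irgm2 by a log2 fold change of 2.46 ± 0.185 (adjusted p = 4.58e-10), Ifi47 by 2.03 ± 0.306 (7.59e-06), Igtp by 1.40 ± 0.178 (8.88e-07), and Tgtp2, at least 1.03-fold higher than Ctrl (adjusted p = 0.00526). The Tgtp2 call was not made for its counts summed with Tgtp1. With so many genes called in each direction, a count of 4 of 8 is near the background. Irgm1 (-0.13 ± 0.0495, adjusted p = 0.0253) and Gm12250 (-1.51 ± 0.644, adjusted p = 0.0445) were called lower, as were 32.8% of all genes, and Iigp1 and Tgtp1 were not called. Csf1r, Lyz2 and Tnnt2, markers of other cell types, were also higher in the Oxali libraries by their counts, and their part in these changes was not tested. Both lower calls were weak: that of Irgm1 was lost without Ctrl replicate 1 (-0.10, adjusted p = 0.154), Oxali replicate 1 (-0.15, 0.0519) or Oxali replicate 2 (-0.12, 0.11), and that of Gm12250 without Ctrl replicate 1 (-0.77, 0.498), Oxali replicate 1 (-1.80, 0.0798) or Oxali replicate 2 (-1.29, 0.169). With Tgtp2 at its bound and Iigp1, for which no fold is given, entered as 0, the median log2 change of the 8 was 0.12, against 1.23 with fitted values and 0.0168 over all genes.

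Against Ctrl, all 8 members were called higher in Combo200 and in Combo2000, where 35.6% and 35.7% of all genes were. The median log2 fold change was 4.93 in Combo200 and 6.24 in Combo2000 with floor-level Ctrl values at their bounds (6.29 as fitted), against 0.0208 and 0.0205 over all genes. Adding IFNγ to Oxali raised all 8 as well, where 1.58% of all genes were called higher at 200 pg and 3.37% at 2000 pg. The log2 fold change at 200 pg ran from 1.44 ± 0.0453 in Irgm1 to 3.91 ± 0.0813 in Igtp among the members above the floor in Oxali. Those at the floor were given as count ratios: 157 (66.9 to 484) for Iigp1 and 20.3 (8.45 to 63.6) for Gm12250. At 2000 pg the ratios were 809 (347 to 2494) and 148 (63.0 to 456).

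Adding Oxali to IFNγ raised all 8 at both amounts, where 36.5% of all genes at 200 pg and 38.5% at 2000 pg were called higher. Over IFN200, the log2 fold change was smallest in Irgm1 (1.21 ± 0.0442) and largest in Iigp1 (6.50 ± 0.199, from 5 and 4 counts), with Irgm2 at 4.56 ± 0.0811. Over IFN2000 it was again smallest in Irgm1 (1.07 ± 0.0413) and largest in Gm12250 (4.34 ± 0.165), followed by Iigp1 (4.18 ± 0.0801). The median of the 8 was 3.70 at 200 pg and 2.17 at 2000 pg.

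Whether the effect of IFNγ differed with the drug present was tested as an interaction on the log2 scale. At 200 pg it was positive and called in 5 of 8 members, where 0.562% of all genes were called higher. Gm12250 gained 4.26 ± 0.726 (adjusted p = 0.00502), Igtp 2.70 ± 0.241 (1.05e-06), Irgm2 2.10 ± 0.275 (0.000218), Tgtp1 1.56 ± 0.143 (1.51e-06) and Irgm1 1.34 ± 0.0664 (3.63e-10). Ifi47 was not called (1.26 ± 0.422, adjusted p = 0.26), nor were Iigp1 (adjusted p = 0.183) and Tgtp2 (0.836), for which 2 of the 4 groups held 0 to 4 counts per library. With DESeq2 Iigp1 passed (adjusted p = 0.00989). At 2000 pg it was called in 4 of 8, where 2.12% of all genes were called higher: Gm12250 (5.85 ± 0.711, adjusted p = 4.62e-05), Irgm1 (1.20 ± 0.0644, 1.31e-09), Tgtp1 (1.06 ± 0.134, 7.93e-05) and Igtp (0.85 ± 0.205, 0.0289). The value of Irgm2 at 2000 pg was 0.19 ± 0.235 (adjusted p = 0.764) and that of Ifi47 -0.50 ± 0.348 (0.512). Of all genes called at 2000 pg, 78% were higher, and 59% with upper-quartile scaling. At 200 pg these shares were 80.4% and 70.4%.

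The Gm12250 interactions compare an Oxali group of 3 and 2 counts. Without Ctrl replicate 1, the value at 200 pg was 3.50 and was no longer called (adjusted p = 0.222). The interaction of Igtp at 2000 pg lost its call without Ctrl replicate 1 (adjusted p = 0.25), Ctrl replicate 2 (0.175), Oxali replicate 1 (0.118) or 2 (0.0809), Combo200 replicate 2 (0.0508) or 3 (0.0533), and Combo2000 replicate 2 (0.0892) or 3 (0.0561), with values from 0.80 to 0.91. On the linear scale, both combination libraries were above Ctrl plus the 2 single effects in 8 of 8 members at either amount, as a description with no test. The share of all genes above such a sum was not counted, so this count has no background. In Combo200 the mean was 2.52 times that sum for Irgm1, 3.06 times for Tgtp1, 4.29 times for Ifi47, 9.76 times for Irgm2 and 10.0 times for Igtp. In Combo2000 it was 2.20, 2.26, 2.33, 5.33 and 4.48 times for these genes in that order. No such ratio is given for Iigp1, Tgtp2 and Gm12250, whose sums rest on groups near the floor.

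**Figure D4:**
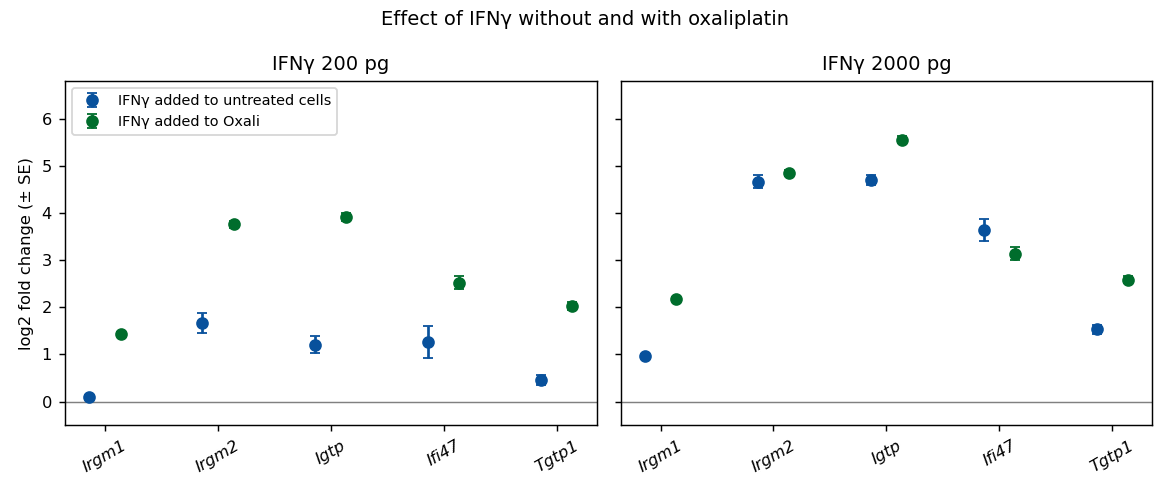
Log2 fold change (± SE, from the fit on 12 libraries) on adding IFNγ to untreated cells (blue) and to Oxali (green), at 200 pg on the left and 2000 pg on the right, for the 5 members above the floor in every group. At 200 pg the green point is higher in each, from 1.44 against 0.10 in Irgm1 to 3.91 against 1.21 in Igtp; at 2000 pg the points of Irgm2 and Ifi47 lie close together.

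The IFNγ dose step was smaller with the drug than without it in 7 of 8 members. With Oxali, going from 200 to 2000 pg still raised all 8, where 1.21% of all genes were called higher, but the ratio of group means was 5.19 for Iigp1, 3.12 for Igtp, 2.14 for Tgtp2, 2.13 for Irgm2, 1.66 for Irgm1, 1.54 for Ifi47 and 1.48 for Tgtp1. In Gm12250 it was 7.26, more than the 2.42 without the drug. The difference between the log2 steps, which equals the interaction at 2000 pg minus that at 200 pg, was tested after these ratios had been seen. It was called lower with the drug in 6 of 8 members, where 3.19% of all genes were: Iigp1 (-2.32 ± 0.359, adjusted p = 0.0011), Tgtp2 (-2.05 ± 0.258, 2e-04), Irgm2 (-1.91 ± 0.113, 4.45e-09), Igtp (-1.85 ± 0.108, 4.45e-09), Ifi47 (-1.76 ± 0.212, 8.75e-05) and Tgtp1 (-0.51 ± 0.105, 0.00971). The values of Iigp1 and Tgtp2 rest on 5 and 4 and on 13 and 9 counts in IFN200. Irgm1 was not called (-0.14 ± 0.0604, adjusted p = 0.178). Gm12250 was called higher (1.59 ± 0.46, adjusted p = 0.0444), as were 3.4% of all genes.

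The Gm12250 difference stayed positive, between 1.37 and 1.85, with any library left out, but its call was lost in 10 of the 12 cases, with adjusted p up to 0.207. It held only without Ctrl replicate 1 or 2. With the replicate number as a block its adjusted p was 0.238. The Tgtp1 difference was not called without IFN200 replicate 1 (-0.56, adjusted p = 0.0517), Combo200 replicate 3 (-0.48, 0.0694) or Combo2000 replicate 2 (-0.43, 0.0522).

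**Figure D5:**
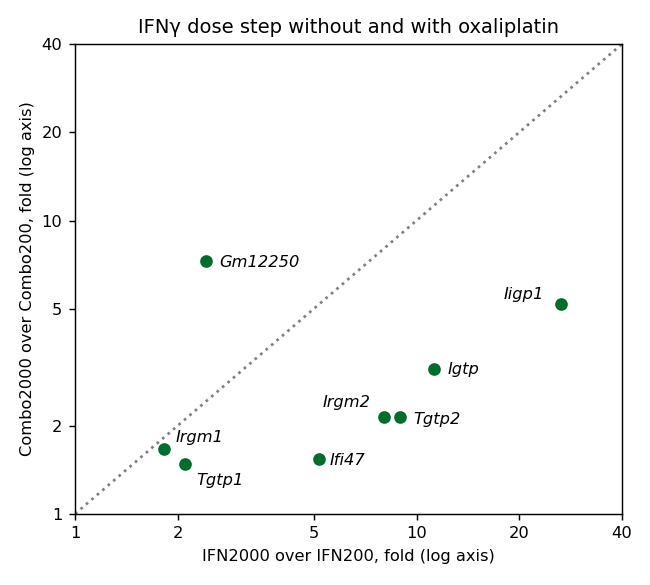
Ratio of group means at 2000 over 200 pg IFNγ without Oxali (horizontal log axis) and with Oxali (vertical log axis), 1 point per member; the dotted line marks equal ratios. Gm12250 (2.42 and 7.26) is above the line and the other 7 members are below it, Irgm1 (1.82 and 1.66) closest to it.

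The further family genes listed were 8, of which 6 passed the filter. Gm4951, Gm4841 and F830016B08Rik, effector-class genes next to Iigp1 on chromosome 18, were at 0 counts in both Ctrl and both IFN200 libraries. Gm4841 had 5 and 7 counts with 2000 pg of IFNγ alone and none with Oxali alone, but 50 and 61 in Combo200 and 315 and 247 in Combo2000, at least 70.0-fold higher than Ctrl. Gm4951 reached 145 and 133 counts in Combo2000, at least 34.8-fold higher than Ctrl, and F830016B08Rik 99 and 76, at least 21.8-fold higher. Each had a few counts or none in the single treatments, and no interaction is given for them.

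The neighbouring genes 9930111J21Rik1 and 9930111J21Rik2 on chromosome 11 were both called higher in Oxali and in Combo2000 against Ctrl. 9930111J21Rik2 had 25 and 40 counts in Ctrl, 64 and 53 in Oxali, and 195 and 183 in Combo2000. 9930111J21Rik1 had 3 and 0 counts untreated, 6 and 8 with 2000 pg of IFNγ alone and 17 and 19 with Oxali alone, and the combinations held 56 and 67 at 200 pg and 65 and 56 at 2000 pg. The change from Combo200 to Combo2000 was not called for either gene (log2 -0.06 ± 0.217, adjusted p = 0.968 for 9930111J21Rik1, and 0.29 ± 0.121, adjusted p = 0.464 for 9930111J21Rik2). Irgq, a divergent relative, was called lower in Oxali (-0.26 ± 0.0657, adjusted p = 0.00159) and in Combo2000 (-0.33 ± 0.0646, adjusted p = 0.00015). Gm5431 had at most 9 counts in any library and Irgc1, a testis gene, at most 2. In Combo2000 against Ctrl, 5 of the 6 tested were called higher and 1 lower, where 35.7% and 33.5% of all genes were. All but Irgq and 9930111J21Rik2 were at the floor in Ctrl and passed the filter only through treated groups, so that their being called was partly fixed by it.

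Of 13 autophagy and ubiquitin genes that place IRG proteins on membranes or tag the vacuole, 7 were called higher and 5 lower in Combo2000 against Ctrl, with a median log2 fold change of 0.21. With 35.7% of all genes called higher and 33.5% lower, these counts are near the background. Trim21, a ubiquitin ligase, had the largest rise (2.46 ± 0.107), from 82 and 98 counts to 672 and 642. Map1lc3a (1.18 ± 0.0817) and Sqstm1 (0.93 ± 0.039), an LC3 gene and an autophagy receptor, also rose, and Gabarapl1 (-0.83 ± 0.057) and Atg16l1 (-0.33 ± 0.0542) fell. On adding IFNγ at 2000 pg to Oxali, 1 of the 13 was called higher and 0 lower, where 3.37% and 0.987% of all genes were. These counts are also near the background. In the same comparison 8 of 8 IRG members were called higher.

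Of 11 genes from the IFNγ receptor to IRF1, 10 were called higher in Oxali and 11 in Combo2000 against Ctrl, where 34.8% and 35.7% of all genes were, with median log2 fold changes of 0.76 and 2.29. Irf1 went from 37.8 ± 1.14 CPM in Ctrl to 95.2 ± 1.54 in Oxali, 94.2 ± 0.444 in IFN2000 and 438 ± 9.26 in Combo2000 (log2 fold change 3.54 ± 0.0481). The part of Irf1 in the changes of the members was not tested. Irf8 (3.78 ± 0.272) also rose, and Jak2 (0.68 ± 0.0364) and Jak1 (0.26 ± 0.0417) changed least.

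All 11 guanylate binding proteins, the larger IFNγ-inducible GTPases that act on the same vacuoles, were called higher in Combo2000 against Ctrl, where 35.7% of all genes were. Of the 11, 8 were at the floor in Ctrl and passed the filter only through treated groups, so that their being called was partly fixed by it. Their median log2 fold change was 8.12 as fitted, beside 6.29 for the IRG members, and 6.14 beside 6.24 with floor-level Ctrl values at their bounds. Gbp5 went from 0 and 0 counts to 1392 and 1068, Gbp4 from 0 and 1 to 372 and 315, and Gbp2b from 2 and 0 to 161 and 132. Gbp3 (8.91 ± 0.0991) and Gbp7 (6.94 ± 0.129) had counts in every group. Over the 12 libraries, the genes outside the family whose log2 CPM followed the mean standardised profile of the 8 members most closely were Gbp2 (Pearson r = 0.996), Mlkl (0.9843), Gbp3 (0.9835), Parp9 (0.9832) and Nlrc5 (0.9803). These are descriptions over libraries that share their treatments. Mlkl, the executor of necroptosis, differed in size, with 30.1 CPM in Ctrl and 60.4 in Combo2000.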

How the data were processed

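The deposited values were whole numbers per gene symbol and were treated as raw read counts. According to the study's methods, the authors checked reads with FastQC, aligned them with STAR to GRCm38 with a GENCODE annotation, and counted genes with featureCounts. The submitters' processing notes name STAR 2.7.3a and RSEM 1.3.0. Whether featureCounts or RSEM gave the deposited values is not clear. The libraries came from a stranded mRNA kit, and the strand setting of the counting is not given in the sources used here. All 12 columns matched a sample title. Genes were filtered with filterByExpr (minimum count 10, total 15), scaled by TMM and tested with edgeR 4.0.16 (R 4.3.3; quasi-likelihood, 1 mean per group, Benjamini-Hochberg within each of 14 contrasts) for 13177 genes. SEs are the log2 fold change over the root of F. Exon lengths are unions of GENCODE exons of GRCm38, and promoter sequences are from RefSeq (GRCm38.p6). The test was checked on simulated counts. Alternatives were DESeq2 1.42.0, 2 other scalings, 2 other filters, a replicate block, a length correction, only the groups compared, a 2-fold threshold and each library left out. Counting Tgtp1 and Tgtp2 as 1 gene, and the test of the difference in dose step, were added after seeing the data. The labels do not say whether libraries of a group came from separate cultures, so p-values measure the spread between these libraries, which may be technical. No pair of libraries matched within sampling noise (chi-square per degree of freedom 1.65 to 8.392).

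The members, gene lists and tests were chosen with earlier results of these data known. Named genes were all members and further family genes, up to 3 largest and 2 smallest called changes in Combo2000 over Ctrl from each other list, and the 5 genes most like the members' mean profile. Some genes that this rule names are not reported here. Replicate numbers showed no clear pairing of the libraries: deviations of same-numbered libraries correlated at -0.319 to 0.1075 over 15 group pairs, above 0.1 in 2. The lowest values were -0.319 for IFN2000 with Combo2000 and -0.191 for IFN200 with Oxali. Ctrl, IFN200 and Oxali held replicates 1 and 2 and the other groups 2 and 3, so a replicate effect would be partly mixed with treatment. Counting intervals and floors cover counting error only.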

Additional observations from a re-analysis of the deposited data

Results flagged for a closer look

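The log2 effect of IFNγ differed with Oxali present, by the interaction test in edgeR, in the members below. At 200 pg the difference was 1.34 for Irgm1, 2.10 for Irgm2, 2.70 for Igtp, 1.56 for Tgtp1 and 4.26 for Gm12250. At 2000 pg it was 1.20 for Irgm1, 0.85 for Igtp, 1.06 for Tgtp1 and 5.85 for Gm12250. The call of Igtp at 2000 pg was lost in 8 of 12 cases with a library left out, and that of Gm12250 at 200 pg in 1.

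The log2 dose step from 200 to 2000 pg differed between cells with and without Oxali, in a test added after the ratios had been seen. It was smaller with the drug by -2.32 for Iigp1, -1.91 for Irgm2, -1.85 for Igtp, -1.76 for Ifi47, -0.51 for Tgtp1 and -2.05 for Tgtp2, and larger by 1.59 for Gm12250. Each of these differences equals the interaction at 2000 pg minus that at 200 pg, so they are not a separate result. The call of Gm12250 was lost in 10 of 12 cases with a library left out, and that of Tgtp1 in 3. Groups of 2 libraries were too small to look for outlying samples.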

How the results depend on the processing

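Over 112 member results, 2229 values were recomputed under the alternatives: 2172 kept their direction and their side of the threshold, 54 lost and 3 gained a call, and 0 reversed. The count of members called higher in IFN200 was 5 without a filter on low counts, against 3, and 0 to 3 with a library left out, lowest without Ctrl replicate 2. With at least a 2-fold change, 5 of 8 were called in Combo2000 over Combo200. For the difference in dose step, DESeq2 called 3 lower, against 6, since it gave an adjusted p for only 4 of the 8 members. Gm12250 in Oxali was not called at adjusted p of 0.0526 with upper-quartile scaling, 0.0819 without the filter, 0.0562 with the length correction and 0.074 in DESeq2, and Irgm1 in Oxali at 0.171 with upper-quartile scaling and 0.0611 in DESeq2. Gm12250 in IFN2000 was not called in DESeq2 (0.058), nor with only the groups compared (0.0728), nor Tgtp2 in IFN200 in DESeq2 (0.122).

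With the replicate block, the calls lost were Tgtp2 in IFN200 (adjusted p = 0.0547), Gm12250 in IFN2000 (0.0574), Gm12250 in Oxali (0.0559) and the Gm12250 dose step (0.238), which was also lost with only the groups compared (0.0528). The block left 2 members called in IFN200 and 7 in IFN2000, and the numbers are only numbers here. The scalings moved the median of all genes by at most 0.0529 on the log2 scale. The other causes were not tested. Depth limits Iigp1, Tgtp2 and Gm12250 in Ctrl, IFN200 and Oxali, where changes under about 3 counts per library could not be seen.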
